A study of Mus musculus with 8 samples.

Results

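Osteoblast genes, namely *Ibsp*, *Spp1*, *Alpl*, *Runx2*, *Sp7*, *Phex*, *Dmp1*, *Sparc* and *Bglap2*, were followed by RNA-seq in 8 libraries of cells of the neonatal mouse cochlea. All 9 were looked up by symbol in the NCBIM37 annotation, and all 9 were found among the 36536 genes counted in each library. The cells came from *Lfng-GFP* mice, a BAC transgenic line (B6;FVB-Tg(Lfng-EGFP)HM340Gsat/Mmucd) in which the *Lfng* regulatory region drives EGFP in most supporting cell types of the organ of Corti but not in inner pillar cells. Both fractions at both ages carried this transgene. Freshly dissected cochleas were dissociated and sorted at postnatal day 1 (P1) or day 6 (P6) into the brightest GFP-positive cells (GFP+) and the cells without GFP (GFP-), with 2 libraries for each of the 4 groups. The cells of one library were pooled from many cochleas, and the labels do not say that replicates came from separate animals, so the tests measure the spread between libraries, which may be technical.

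Osteoblasts are the cells that lay down bone. The transcription factor Runx2 commits mesenchymal cells to this lineage and Sp7 (osterix) acts after it. Mature osteoblasts then make alkaline phosphatase, which frees phosphate for mineral, and secrete proteins that bind collagen, calcium or both. In the inner ear, the membranous cochlea is enclosed by the otic capsule, a cartilage shell that ossifies around and after birth, and the spiral ganglion lies in a bony core, the modiolus. According to the methods of the study, the bony capsule was pulled away with forceps before dissociation, the lateral wall was taken off at P1 and only partly removed at the later age. The age of the animals and the extent of dissection therefore cannot be told apart here, and no measurement identifies which bone the transcripts came from. In bulk RNA, fewer cells of a type and less RNA per cell cannot be told apart either.

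The 9 genes lie on 7 chromosomes. On build NCBIM37 (mm9), *Dmp1* (chr5:104631632-104643121), *Ibsp* (chr5:104728190-104740488) and *Spp1* (chr5:104864137-104870069) sit on the plus strand in one cluster of 238 kb that also holds *Mepe*. All 4 encode acidic phosphoproteins of bone and tooth matrix. *Alpl* is at chr4:137297648-137352299, *Runx2* at chr17:44632936-44951746, *Sp7* at chr15:102187040-102197285, *Phex* at chrX:153596618-153853244, *Sparc* at chr11:55208002-55233582 and *Bglap2* at chr3:88181658-88182621, all on the minus strand. *Bglap2* encodes an osteocalcin and has a near-identical neighbour, *Bglap*. Of its 372 transcript windows of 100 bases, 192 were identical to windows of *Bglap*, so its counts are uncertain. An exon of *Runx2* overlaps *Gm10497* on the opposite strand, and whether strand was used in counting is not given in the sources used here.

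Runx2 binds a short core, TGTGGT, and the 250 bases before the transcription start were searched for it on both strands. RefSeq promoters (GRCm38.p6) were at hand for 7 of the 9 genes and for *Bglap*, but not for *Sp7* or *Bglap2*. The core was found in 3 of the 10 promoters of these 7 genes, in *Spp1*, *Runx2* and the second start of *Dmp1*, and in that of *Bglap*. Over the whole table, 14.0% of 32851 promoters hold it, and 15.9% of genes have a promoter that does. These 4 are printed to show the match in its context, 5′ to 3′ in the direction of transcription. All 4 matches lie on the opposite strand, so the capitals mark the reverse complement of the core. They are at chr5:104434861-104435110 on the plus strand (*Spp1*), chr17:44814628-44814877 on the minus strand (*Runx2*), chr5:104202367-104202616 on the plus strand (*Dmp1*) and chr3:88384467-88384716 on the minus strand (*Bglap*).
Spp1: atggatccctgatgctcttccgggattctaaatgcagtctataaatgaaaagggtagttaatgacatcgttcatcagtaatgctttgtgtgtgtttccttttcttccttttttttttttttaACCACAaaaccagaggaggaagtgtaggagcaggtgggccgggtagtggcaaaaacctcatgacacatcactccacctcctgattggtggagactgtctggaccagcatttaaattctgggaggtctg
Runx2: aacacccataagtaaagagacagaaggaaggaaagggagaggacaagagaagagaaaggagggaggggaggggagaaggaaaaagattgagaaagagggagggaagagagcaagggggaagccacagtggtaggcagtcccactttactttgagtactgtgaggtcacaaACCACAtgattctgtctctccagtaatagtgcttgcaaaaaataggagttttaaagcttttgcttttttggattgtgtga
Dmp1: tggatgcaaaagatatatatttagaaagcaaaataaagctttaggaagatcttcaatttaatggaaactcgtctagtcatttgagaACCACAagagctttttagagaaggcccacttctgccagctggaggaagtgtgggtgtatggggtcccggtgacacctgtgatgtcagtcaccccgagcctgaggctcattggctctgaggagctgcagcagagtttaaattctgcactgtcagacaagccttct
Bglap: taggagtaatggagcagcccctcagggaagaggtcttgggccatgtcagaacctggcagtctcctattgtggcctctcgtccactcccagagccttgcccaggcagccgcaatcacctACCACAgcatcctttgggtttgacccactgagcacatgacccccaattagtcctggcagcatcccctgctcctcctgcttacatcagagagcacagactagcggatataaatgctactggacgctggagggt
The core begins 128 bases before the start in *Spp1*, 80 in *Runx2*, 164 in *Dmp1* and 132 in *Bglap*. A match of 6 letters describes the sequence and is not a measured binding site.

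The deposited counts summed to 17769024 to 67695039 per library over genes, and a level is given as CPM, the count scaled by that sum. One count was worth 0.0148 to 0.0563 CPM. Replicates correlated at 0.972 to 0.996 across genes on the log2 scale, lowest for P6 GFP+ cells, and no 2 libraries of a group agreed within sampling noise. Summed supporting cell markers, 10 genes, were at 9314 and 9736 CPM in P1 GFP+ cells and 8395 and 6365 CPM in P6 GFP+ cells, against 557 to 727 CPM in the 4 GFP- libraries.

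In GFP- cells, osteoblast genes of every role, from transcription factor to matrix protein, rose between P1 and P6. At an adjusted p below 0.01 (edgeR's quasi-likelihood test, Benjamini-Hochberg adjustment over 18920 genes), 8 of the 9 were higher at P6 than at P1, whereas 5.04% of all genes tested were called higher and 2.34% lower. None of the 9 was called lower, either here, at an unadjusted p below 0.05 or by DESeq2. All 9 passed the filter on low counts, and their median log2 fold change was 3.56 beside -0.02 over all genes. The exception was *Spp1*. Both P6 libraries were above both P1 libraries for 8 of the 9, and for 20.5% of all genes tested. With a fold change above 4 required as well, 7 of the 9 were called, and 1.43% of all genes.

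**Figure D1:**
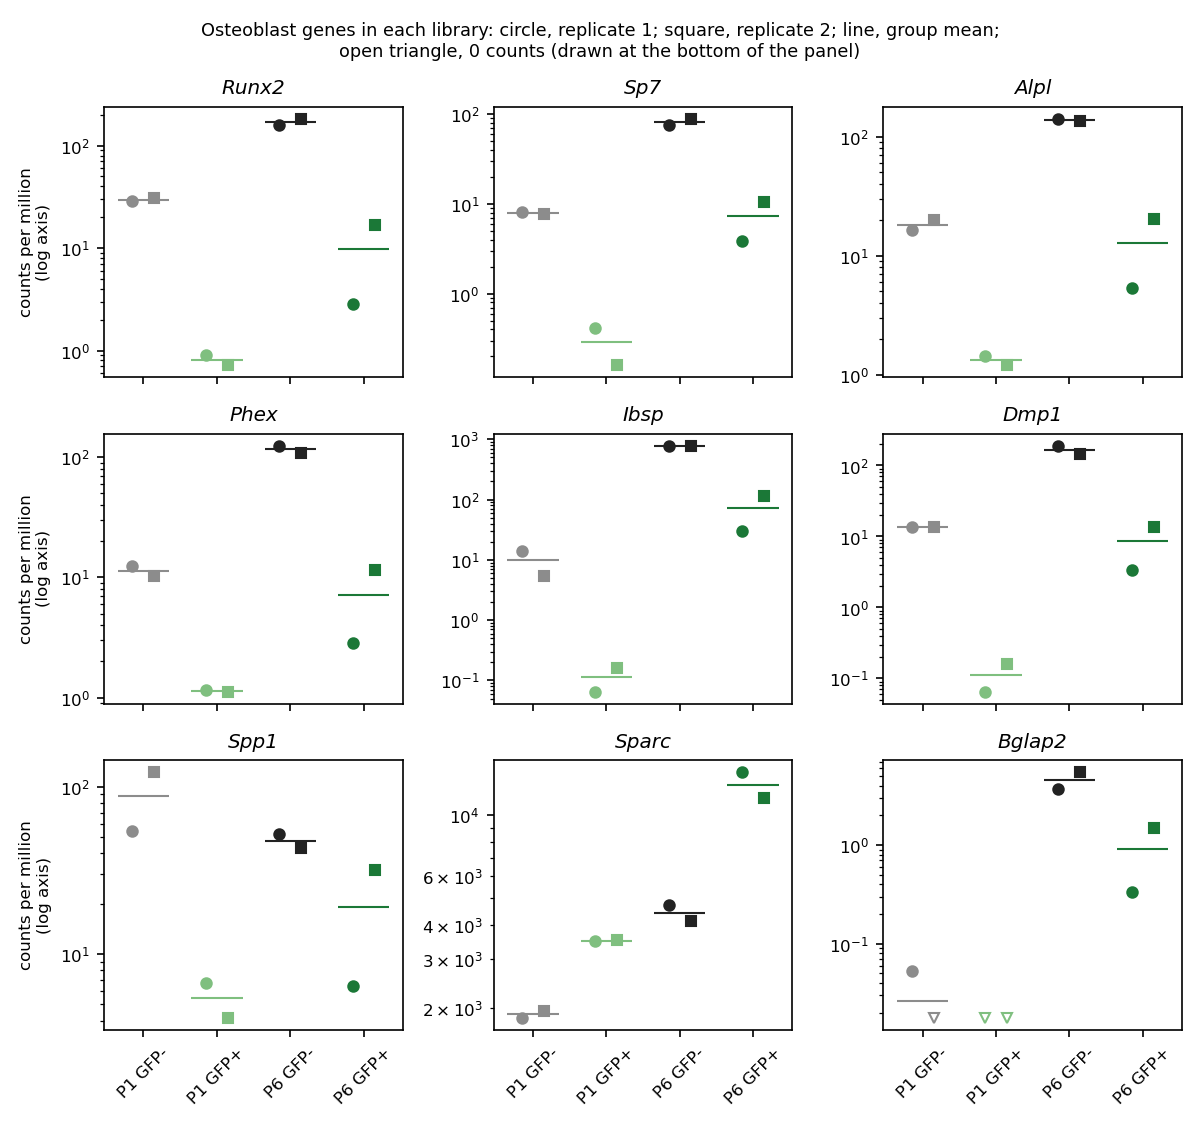
Level of the 9 osteoblast genes in each of the 8 libraries, in CPM on a log axis, with a circle for replicate 1, a square for replicate 2 and a line at the group mean; an open triangle marks a library with 0 counts. In P6 GFP- cells 7 genes sit above every other group in both replicates, *Spp1* has its highest value in a P1 GFP- library, and *Sparc* is highest in P6 GFP+ cells.

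The 2 lineage transcription factors were already expressed in GFP- cells at P1. *Runx2* was at 28.6 and 30.6 CPM at P1 and at 159 and 181 CPM at P6, and the 2 ages did not overlap. It rose by 2.71 ± 0.11 (log2, SE), 6.53-fold, with an adjusted p of 7.18e-05 by edgeR's quasi-likelihood test. With all 8 libraries in the fit the adjusted p was 0.0185 and the call was lost. *Sp7*, which encodes osterix, went from 8.02 and 7.65 CPM to 74.8 and 87.6 CPM, again with no overlap. Its rise of 3.56 ± 0.13 (log2, SE) was 11.8-fold.

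The membrane enzymes followed the same course. *Alpl*, the tissue-nonspecific alkaline phosphatase, was at 16.4 and 19.9 CPM in P1 GFP- cells and at 140 and 136 CPM in P6 GFP- cells, an 8.65-fold rise (log2 3.11 ± 0.13). *Phex*, a membrane peptidase whose loss causes X-linked hypophosphataemia, was at 12.4 and 10.2 CPM and then at 124 and 108 CPM, an 11.8-fold rise (log2 3.56 ± 0.16). The P6 libraries were above both P1 libraries for each enzyme.

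The secreted matrix proteins showed the largest and the smallest changes. *Ibsp*, bone sialoprotein, which nucleates mineral, was at 14.2 and 5.45 CPM in P1 GFP- cells and at 778 and 762 CPM in P6 GFP- cells. Its rise of 6.51 ± 0.46 (log2, SE), 91.0-fold, had an adjusted p of 0.0005 by edgeR's quasi-likelihood test. The P1 replicates differed 2.60-fold from each other, and the estimate was 7.32 without P1 GFP- replicate 1 and 5.94 without P1 GFP- replicate 2. *Dmp1*, a phosphoprotein of osteocytes and mature osteoblasts, was at 13.4 and 13.7 CPM and then at 189 and 144 CPM, a 14.0-fold rise (log2 3.81 ± 0.18). *Bglap2*, one of the osteocalcin genes, had 2 counts and 0 counts in the P1 GFP- libraries and 227 and 370 counts in the P6 GFP- libraries. The ratio of its scaled counts was 233, with an exact 95% interval of 64.2 to 1929 that covers counting error only.

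*Sparc*, or osteonectin, a collagen-binding protein made by many cell types besides osteoblasts, was the most abundant of the 9 in every group. In GFP- cells it was at 1838 and 1950 CPM at P1 and at 4722 and 4126 CPM at P6, and it rose 2.67-fold (log2 1.42 ± 0.19, adjusted p = 0.00408 by edgeR's quasi-likelihood test). Without P6 GFP- replicate 1 or replicate 2 its adjusted p was 0.0207 or 0.0133, and the call was lost.

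*Spp1*, osteopontin, a phosphoprotein also made by macrophages and many epithelia, did not follow the other genes. It was at 54.2 and 122 CPM in P1 GFP- cells and at 52.1 and 42.9 CPM in P6 GFP- cells, so the lower P1 library and the higher P6 library were nearly level. The log2 fold change was -0.70 ± 0.34, with an adjusted p of 0.193 by edgeR's quasi-likelihood test. Without P1 GFP- replicate 1, the library with the lower value, *Spp1* was called lower at -1.18 (adjusted p = 6.39e-06). In that fit P1 had a single GFP- library, assumed to vary like those of P6.

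**Figure D2:**
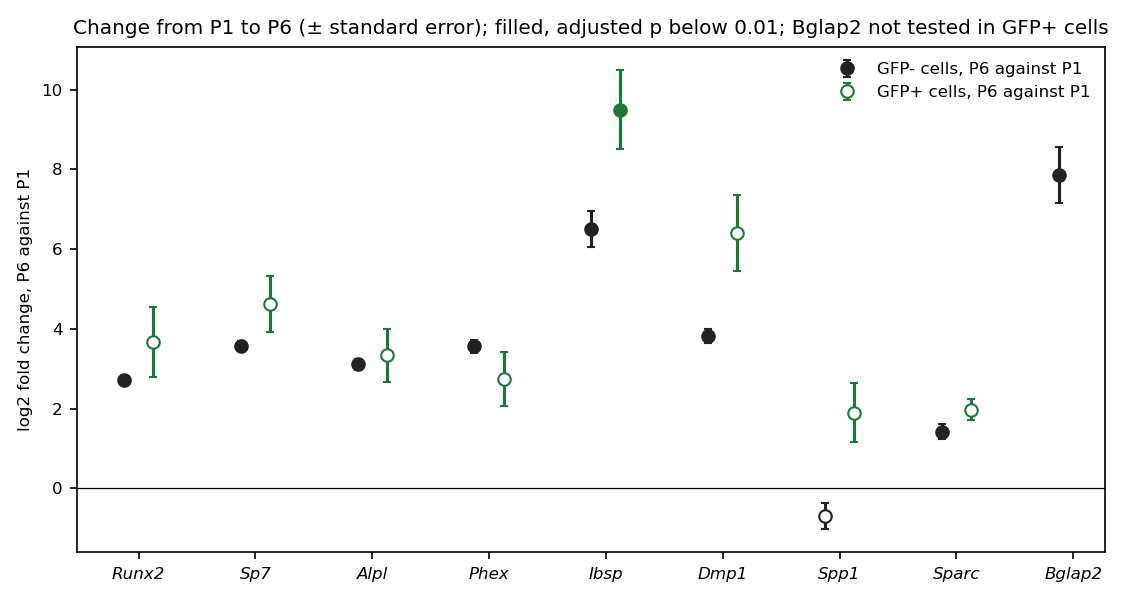
Log2 fold change from P1 to P6 of each osteoblast gene in GFP- cells (black) and GFP+ cells (green), with standard error bars; filled symbols passed an adjusted p below 0.01. In GFP- cells all but *Spp1* are filled and above 0, while in GFP+ cells every tested gene lies above 0 and *Ibsp* alone is filled.

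Per kilobase of exon (RPKM, mean ± SD, n = 2), the order of the genes in P6 GFP- cells was *Sparc* at 1314 ± 125, *Ibsp* at 372 ± 5.31 and *Dmp1* at 60.2 ± 11.5, then *Alpl* at 34.1 ± 0.75, *Spp1* at 28.8 ± 3.95, *Sp7* at 26.7 ± 2.97, *Runx2* at 19.2 ± 1.75, *Phex* at 18.5 ± 1.80 and *Bglap2* at 9.71 ± 2.68. The neighbours *Spp1* and *Sp7*, and *Runx2* and *Phex*, did not differ beyond their spread. In P1 GFP- cells *Sparc* (563 ± 23.6 RPKM) and *Spp1* (53.4 ± 29.0 RPKM) stood above the rest, and *Dmp1*, *Ibsp* and *Alpl* followed at 4.91 ± 0.07, 4.74 ± 2.98 and 4.50 ± 0.61 RPKM, within their spread. *Ibsp* thus moved from below *Spp1* at P1 to above it at P6 on this scale.

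The wider bone gene lists moved in part. Of 18 tested genes of osteoblast transcription and signaling, 4 were called higher and none lower in P6 GFP- cells, beside 5.04% and 2.34% of all genes, with a median log2 fold change of 0.59 (edgeR's quasi-likelihood test). They included the homeobox genes *Dlx5* (6.69 ± 0.44) and *Dlx6*, both activators of osteoblast differentiation. *Dlx6* had 1 count in each P1 GFP- library and 132 and 168 counts in the P6 GFP- libraries, a ratio of 117 in scaled counts (exact 95% interval 32.1 to 971). *Dlx5* was at 0.158 and 0.761 CPM in the P1 GFP- libraries and at 46.8 and 45.9 CPM in the P6 GFP- libraries. *Pth1r*, the receptor for parathyroid hormone, named after its values were seen, rose by 1.48 ± 0.13. *Sost*, the sclerostin gene of embedded osteocytes, was not tested and stood at no more than 0.0973 CPM in any library.

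Of 19 tested genes of bone matrix and mineralisation, 8 were called higher and none lower in P6 GFP- cells, again beside 5.04% and 2.34% of all genes, with a median log2 fold change of 1.20. *Bglap*, the second osteocalcin gene, had 2 and 4 counts at P1 and 752 and 1057 counts at P6, a ratio of 235 in scaled counts (exact 95% interval 108 to 642). It shares sequence with *Bglap2*, so their counts are not independent. *Smpd3*, a neutral sphingomyelinase needed for bone mineralisation, rose 52.7-fold (log2 5.72 ± 0.37), from 5.17 and 11.7 CPM to 369 and 421 CPM. *Mepe*, also in the chromosome 5 cluster, had 4 and 0 counts at P1 and 69 and 93 counts at P6, a ratio of 31.6 (exact 95% interval 12.1 to 117). The type I collagen gene *Col1a1* had a log2 fold change of 0.90 ± 0.18 (adjusted p = 0.0159) and *Col1a2* of 0.81 ± 0.23 (adjusted p = 0.0516), and neither was called by edgeR's quasi-likelihood test.

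Osteoclasts, the cells that resorb bone, are controlled by osteoblasts through the ligand Rankl (*Tnfsf11*) and its decoy receptor osteoprotegerin (*Tnfrsf11b*). Of 13 tested genes of this list, 5 were called higher and none lower in P6 GFP- cells, beside the same 5.04% and 2.34% of all genes, with a median log2 fold change of 0.92. *Atp6v0d2*, a subunit of the osteoclast proton pump, had 0 and 1 counts at P1 and 91 and 125 counts at P6, a ratio of 169 (exact 95% interval 29.9 to 6691). *Tnfsf11* rose by 5.18 ± 0.75, from 0 and 4 counts at P1 to 98 and 67 counts at P6, and without P6 GFP- replicate 1 or 2 its call was lost (adjusted p = 0.0412 and 0.0179 by edgeR's quasi-likelihood test). The other 3, named after their values were seen, were *Tnfrsf11b* (3.68 ± 0.21), *Acp5* (4.02 ± 0.25), the tartrate-resistant acid phosphatase, and *Mmp9* (2.05 ± 0.19), a matrix protease. In the 3 bone lists, 1 gene (*Itgb3*) was lower at an unadjusted p below 0.05, and DESeq2 called 0 lower.

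**Figure D3:**
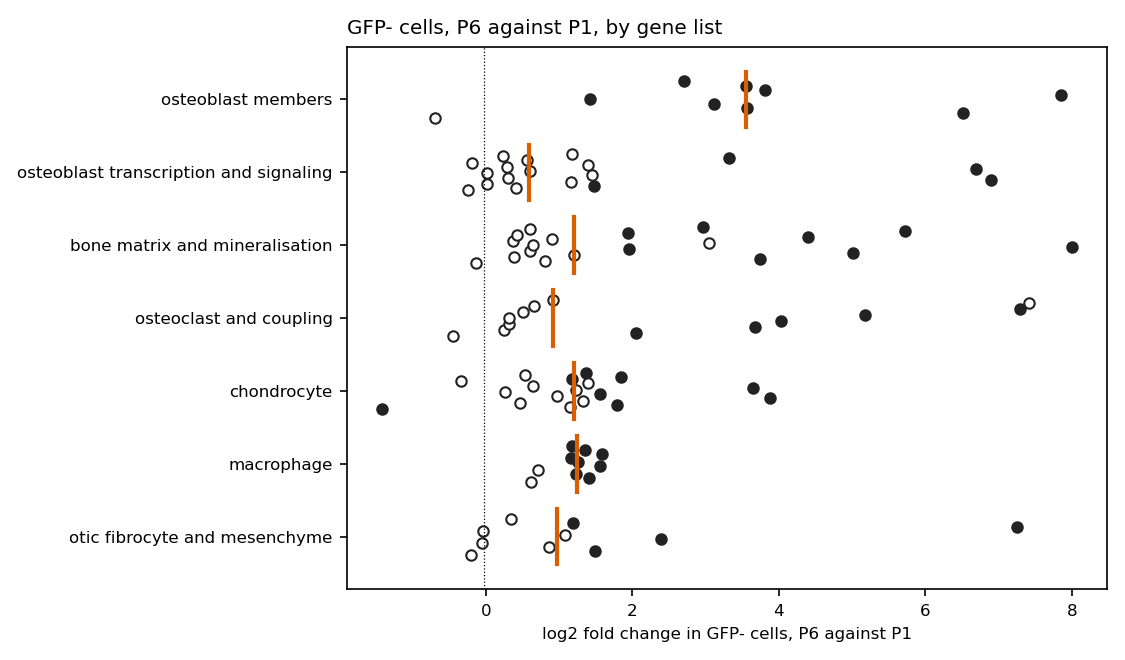
Log2 fold change of each tested gene of 7 lists in GFP- cells, P6 against P1; filled points passed an adjusted p below 0.01, the orange bar is the median of the list and the dotted line the median of all genes (-0.02). The 9 osteoblast genes have the highest list median, 3.56. The medians of the wider bone lists are 0.59 for transcription and signaling, 1.20 for bone matrix and mineralisation and 0.92 for osteoclast genes.

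Markers of other cell types moved in GFP- cells as well. Of 18 tested chondrocyte genes, 7 were called higher and 1 lower, led by *Acan*, the cartilage proteoglycan (3.88 ± 0.14), and *Chad*, chondroadherin (3.64 ± 0.13), while *Matn1* fell by 1.42 on the log2 scale. The list summed to 27031 and 28494 CPM in the P1 GFP- libraries and to 66023 and 65500 CPM in the P6 GFP- libraries. *Col10a1*, the collagen of hypertrophic cartilage, stayed between 0.713 and 1.21 CPM in the 4 GFP- libraries. Macrophage markers were called higher for 8 of 10 genes, summing to 226 to 289 CPM at P1 and 537 to 597 CPM at P6. Schwann cell markers were called higher for 5 of 10 genes (1002 and 1083 CPM at P1, 1698 and 1958 CPM at P6), and otic fibrocyte and mesenchyme markers for 4 of 10 (7142 and 5866 CPM at P1, 14056 and 11569 CPM at P6). The counts of higher and lower calls were 2 and 0 of 10 endothelial genes, 2 and 1 of 9 melanocyte genes, 0 and 1 of 10 neuronal genes, 1 and 0 of 10 hair cell genes, 0 and 0 of 10 supporting cell genes and 0 and 0 of 6 red blood cell genes, against 5.04% and 2.34% of all genes. At an unadjusted p below 0.05, 9 neuronal, 7 hair cell and 3 supporting cell genes were lower, and 16% of all genes. No marker of these lists was at 0 in all libraries. Their part in the rise of the osteoblast genes was not tested.

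At P1, all of the osteoblast genes tested except *Sparc* were lower in GFP+ cells than in GFP- cells. Of 8 genes tested, 7 were called lower and *Sparc* was called higher, and 20.7% of all 18682 genes tested were called lower and 16.6% higher (edgeR's quasi-likelihood test). *Dmp1* and *Ibsp* each had 3 and 4 counts in the 2 P1 GFP+ libraries, at most 0.161 CPM. In scaled counts *Dmp1* was 137-fold (exact 95% interval 66.5 to 343) and *Ibsp* 88.1-fold (42.6 to 220) higher in P1 GFP- cells. *Runx2*, at 0.895 and 0.723 CPM in P1 GFP+ cells, was 33.2-fold lower there (log2 -5.05 ± 0.19).

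The differences of the other osteoblast genes were smaller than that of *Runx2*. *Sp7* was at 0.415 and 0.161 CPM in P1 GFP+ cells, *Alpl* at 1.44 and 1.21 CPM, *Phex* at 1.16 and 1.12 CPM and *Spp1* at 6.72 and 4.14 CPM, and their log2 differences from GFP- cells ran from -4.52 for *Sp7* to -3.20 for *Phex*. *Bglap2* had 0 counts in both P1 GFP+ libraries, where 3 counts would be 0.0655 and 0.121 CPM, and no fold is given because both fractions were at or under that floor. *Sparc*, in contrast, was at 3486 and 3537 CPM in P1 GFP+ cells, 1.99-fold above GFP- cells (log2 0.99 ± 0.13, adjusted p = 0.00136). Leaving out either P1 GFP+ library ended this call.

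At P6, fewer osteoblast genes passed the test between the fractions than at P1, and the 2 P6 GFP+ libraries differed from each other. Of the 9 genes tested, 4 were called lower in GFP+ than in GFP- cells (*Alpl*, *Sp7*, *Phex* and *Dmp1*) and none higher, while 5.19% of 18294 genes were called lower and 7.72% higher (edgeR's quasi-likelihood test). At an adjusted p below 0.05, 7 genes were lower, beside 17.9% of all genes, and *Sparc* was higher, beside 15.5%. The counts were also 7 lower and 1 higher at an unadjusted p below 0.05, beside 24% and 20.9% of all genes. They were the same by DESeq2, beside 13.5% and 11.7% of all genes. The count of osteoblast genes called lower was 7 without P6 GFP+ replicate 1 (14.7% of all genes) and 8 without P6 GFP+ replicate 2 (22.6%), but 0 without P6 GFP- replicate 1 (0.0385%) or replicate 2 (0%). In these fits 1 fraction had a single library, assumed to vary like the other fraction, so the spread came from the remaining pair alone. With scaling by library totals alone the count was 1, beside 2.81% of all genes.

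**Figure D4:**
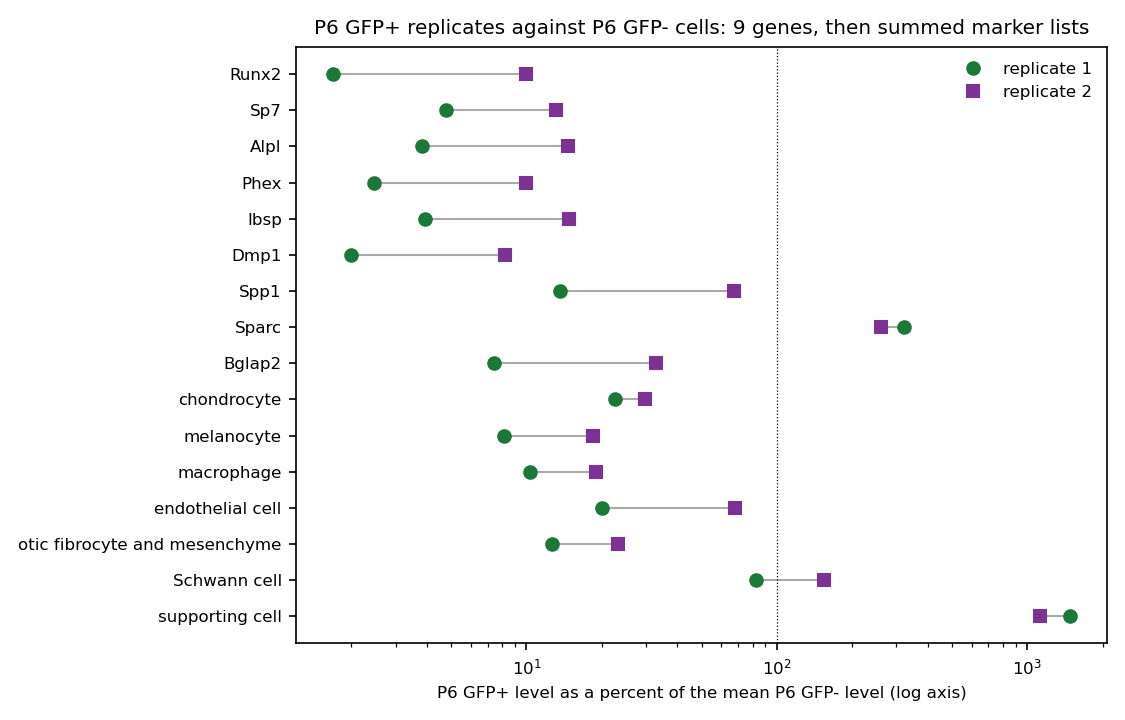
Level in each P6 GFP+ library as a percent of the mean P6 GFP- level, on a log axis, for the 9 osteoblast genes and for the summed markers of 7 cell types; circles are replicate 1 and squares replicate 2. Replicate 2 lies to the right of replicate 1 for 8 of the 9 osteoblast genes and to the left for *Sparc* and for the supporting cell markers.

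Replicate 2 of the P6 GFP+ cells held more of 8 of the 9 transcripts than replicate 1. *Ibsp* was at 30.2 CPM in replicate 1 and 114 CPM in replicate 2, which are 3.93% and 14.8% of the mean P6 GFP- level. *Runx2* was at 2.87 and 16.8 CPM, 1.69% and 9.92% of the GFP- level, the widest gap of the 9 at 5.87-fold. *Sp7* was at 3.88 and 10.6 CPM, or 4.78% and 13.1%, the narrowest gap of the 8 at 2.73-fold.

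*Alpl* (5.29 and 20.1 CPM), *Phex* (2.87 and 11.5 CPM) and *Dmp1* (3.32 and 13.7 CPM) reached 1.99% to 3.84% of the GFP- level in replicate 1 and 8.24% to 14.6% in replicate 2. *Bglap2* had 6 and 45 counts in these libraries, 7.38% and 32.9% of the GFP- level. *Spp1* was at 6.47 CPM in replicate 1, close to P1 GFP+ cells, and at 32.0 CPM in replicate 2, which is 67.4% of the GFP- level. *Sparc* ran the other way, at 14276 and 11502 CPM, or 323% and 260% of the GFP- level. Its log2 difference between the fractions was 1.54 ± 0.36, with an adjusted p of 0.0243 by edgeR's quasi-likelihood test.

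Many other markers of GFP- cells were also higher in replicate 2 than in replicate 1 of the P6 GFP+ cells, by ratios that varied with the list. A set of 738 genes was chosen for a level at least 16-fold higher in GFP- than in GFP+ cells at P1. It includes *Ibsp*, *Spp1*, *Runx2*, *Sp7* and *Dmp1*. In this set the median ratio of replicate 2 to replicate 1 was 2.92 at P6 and 0.963 at P1. A small constant was added to each level before the ratio was taken, which draws ratios of low levels towards equality. The median level of these genes was 6.71% of the GFP- level in P6 GFP+ replicate 1 and 22.6% in replicate 2. Summed marker lists gave ratios of 3.55 for red blood cells, 3.41 for endothelial cells, 2.26 for melanocytes, 1.86 for Schwann cells and 1.85 for macrophages. They were 1.84 for otic fibrocytes and mesenchyme, 1.32 for chondrocytes and 1.25 for neurons. A sum mostly follows its most abundant genes. Within the chondrocyte list, the 2 P6 GFP+ libraries differed 1.69-fold for *Col2a1* and 1.02-fold for *Col11a2*, but 6.43-fold for *Acan* and 3.80-fold for *Chad*. The Schwann cell list includes *Sox10* and *Fabp7*, and the chondrocyte list *Sox6*, which were called higher in GFP+ than in GFP- cells at P6. The supporting cell and hair cell lists, mostly called higher in GFP+ cells at both ages, gave 0.758 and 1.01. The wider bone lists gave 2.07 for bone matrix and mineralisation, 1.33 for osteoclast genes and 1.09 for osteoblast transcription and signaling. Their part in the levels of the osteoblast genes in GFP+ cells was not tested.

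Within GFP+ cells, *Ibsp* was the only osteoblast gene called higher at P6 than at P1. It was 1 of 8 tested, with none called lower (nor at an unadjusted p below 0.05 or by DESeq2), beside 2.86% of 17213 genes called higher and 1.95% lower. *Ibsp* went from 0.0655 and 0.161 CPM to 30.2 and 114 CPM, a log2 fold change of 9.50 ± 0.99 (adjusted p = 0.00599 by edgeR's quasi-likelihood test). In scaled counts the ratio was 834, with an exact 95% interval of 404 to 2075 for counting error. With a library left out the log2 estimate ran from 8.31 without P6 GFP+ replicate 2 to 10.16 without P6 GFP+ replicate 1.

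At an adjusted p below 0.05, 7 of the 8 were higher, beside 12.1% of all genes. The 7 tested genes other than *Ibsp* had log2 fold changes from 1.89 to 6.41 with adjusted p from 0.0102 to 0.128 by edgeR's quasi-likelihood test, the last for *Spp1*. Both P6 libraries were above both P1 libraries for 7 of the 8 tested genes, all but *Spp1*, and for 29.3% of all genes. *Dmp1* was at 0.0655 and 0.161 CPM at P1 and at 3.32 and 13.7 CPM at P6, with a log2 fold change of 6.41 ± 0.95 (adjusted p = 0.0133). *Sparc* was at 3486 and 3537 CPM and then at 14276 and 11502 CPM, with a log2 fold change of 1.97 ± 0.26 (adjusted p = 0.0102). *Bglap2* was not tested, since it did not pass the filter on low counts. It had 0 counts in both P1 libraries and was at least 25.2-fold higher at P6 against a floor of 3 counts over the P1 group. The number of osteoblast genes called higher depended on the libraries and the test. It was 4 without P1 GFP+ replicate 1 (2.91% of all genes), 7 without P6 GFP+ replicate 2 (22.5%), 9 without P6 GFP+ replicate 1 (20.8%) and 8 by DESeq2 (11%). In the first 3 of these fits 1 age had a single library, assumed to vary like the other age.

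Markers of other cell types had positive medians in the same comparison of GFP+ cells. The median log2 fold change was 3.47 for melanocyte, 2.92 for red blood cell, 2.82 for endothelial, 2.69 for otic fibrocyte and mesenchyme, 2.64 for macrophage and 2.30 for Schwann cell markers, beside 3.50 for the 8 osteoblast genes tested and 0.00 for all genes. It was 0.56 for chondrocyte, 0.33 for neuronal, -0.39 for hair cell and -0.51 for supporting cell markers. By edgeR's quasi-likelihood test, 2 of 10 fibrocyte and mesenchyme, 1 of 10 macrophage and 1 of 6 melanocyte genes were called higher. So were 1 of 16 chondrocyte, 1 of 10 neuronal and 1 of 10 hair cell genes. The counts were 0 of 10 endothelial, 0 of 10 Schwann cell, 0 of 5 red blood cell and 0 of 10 supporting cell genes. Among all genes, 2.86% were called higher.

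The lists with the 6 highest medians were picked from these same libraries, so their sums only describe the change. Both P6 libraries were above both P1 libraries for these lists. The same held for chondrocyte markers (11244 and 13766 CPM, then 14838 and 19547 CPM) and neuronal markers (119 and 108 CPM, then 135 and 169 CPM). It did not hold for hair cell or supporting cell markers. Fibrocyte and mesenchyme markers summed to 339 and 328 CPM in P1 GFP+ cells and to 1613 and 2964 CPM in P6 GFP+ cells. Macrophage markers went from 23.0 and 19.8 CPM to 58.3 and 108 CPM, and endothelial markers from 45.3 and 38.7 CPM to 121 and 413 CPM. Schwann cell markers went from 664 and 506 CPM to 1512 and 2806 CPM, melanocyte markers from 32.9 and 37.1 CPM to 62.6 and 142 CPM, and red blood cell markers from 6.13 and 12.7 CPM to 23.4 and 83.2 CPM. Their part in the change of the osteoblast genes was not tested.

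*Slc20a1* and *Mgp* of the mineralisation list are named after their values were seen. *Slc20a1*, which encodes a phosphate transporter, was at 98.3 and 93.9 CPM in P1 GFP+ cells and at 467 and 425 CPM in P6 GFP+ cells, against 38.3 to 65.1 CPM in the 4 GFP- libraries. *Mgp*, matrix Gla protein, an inhibitor of calcification, was at 2.77 and 2.61 CPM in P1 GFP+ cells and at 27.4 and 38.8 CPM in P6 GFP+ cells, against 35.2 and 42.6 CPM in P1 GFP- cells and 138 and 126 CPM in P6 GFP- cells. *Slc20a1* was called higher and *Mgp* lower in GFP+ than in GFP- cells at both ages, and both were called higher at P6 than at P1 in GFP+ cells (edgeR's quasi-likelihood test).

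A model of all 8 libraries tested whether the change with age differed between GFP+ and GFP- cells, as an interaction term. None of the 9 osteoblast genes was called in either direction by edgeR's quasi-likelihood test or by DESeq2, beside 0.946% of 19233 genes called higher and 0.988% lower. The estimate was 2.57 ± 0.91 on the log2 scale for *Spp1* and 2.65 ± 1.11 for *Dmp1*, with adjusted p of 0.147 and 0.218 by edgeR's quasi-likelihood test. A positive estimate is a more positive change with age in GFP+ than in GFP- cells. These 2 genes had an unadjusted p below 0.05 by that test, and none of the 9 had a negative estimate at that level. The share of all genes at that level is not available here, so no conclusion is drawn from these counts. *Ibsp* had the largest estimate, 3.00 ± 1.32 (adjusted p = 0.242 by edgeR's quasi-likelihood test). The standard errors of the 9 estimates ran from 0.31 to 1.32 on the log2 scale.

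Across the 8 libraries, most of the 9 genes had similar profiles. The Pearson correlation of a gene with the mean of the other 8, on log2 values, was 0.992 for *Sp7*, 0.983 for *Alpl*, 0.981 for *Dmp1*, 0.965 for *Phex*, 0.957 for *Ibsp*, 0.935 for *Runx2* and 0.868 for *Bglap2*. It was 0.604 for *Spp1* and -0.0015 for *Sparc*. The 5 other genes with the profile most like the mean of the 9 were *Mfap3l* (0.998), *Fam180a* (0.997), *Chad* (0.995), *Acan* (0.995) and *Thbd* (0.994), among 13599 genes compared. The 8 libraries form 4 groups that differ in age and sort, so these correlations describe the group pattern.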

How the data were processed

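RNA was sequenced from 2 libraries each of P1 GFP+, P1 GFP-, P6 GFP+ and P6 GFP- cells, grouped by the labels. The authors aligned reads to mm9 with TopHat (1.4.0 in the submitters' processing notes, another release in the study's methods) and deposited raw read counts per Ensembl gene, made with HTSeq. The counting mode and strand setting are not given in the sources used here. The rows that name no gene (23.8% to 35.3% of reads) were left out. Counts were tested with edgeR 4.0.16 (R 4.3.3) by the quasi-likelihood test on the 4 libraries of each comparison, with TMM scaling and a filter on low counts (minimum count 10, minimum total 15). A gene was called at an adjusted p below 0.01. DESeq2 1.42.0, other scalings, no filter, all 8 libraries, a replicate block and leaving out each library were alternatives. CPM used library totals, RPKM the NCBIM37 exon length, and likeness log2(CPM + 1) over genes of at least 5 CPM. Scripts were tested on simulated data. The 9 genes, the lists and the 738-gene set were chosen with earlier results of these data known. Named list genes are the 2 called genes with the largest change in each direction, unless stated. *Mepe*, *Col1a1*, *Col1a2*, *Sost*, *Col10a1*, *Itgb3*, *Col2a1* and *Col11a2* were named outside this rule. Some genes of the lists are not reported by name here.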

Additional observations from a re-analysis of the deposited data

How the results depend on the processing

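In GFP- cells the count of osteoblast genes called higher at P6 was 7 to 8 when each library was left out in turn, and the count called lower was 0 to 1. It was 1 (*Spp1*) with no filter on low counts, beside 6.07% of all genes. In GFP+ cells the count called higher, 1 as reported, was 7 at an adjusted p below 0.05 (12.1% of all genes). It was 9 with no filter (9.37%), 8 by DESeq2 (11%) and 7 with all 8 libraries (8.02%), and it changed with the library left out. At P1 the count called higher in GFP+ cells, 1 as reported, was 0 with a fold change above 4 required and 0 to 1 with a library left out. At P6 the count called lower in GFP+ cells, 4 as reported, was 7 at an adjusted p below 0.05 (17.9% of all genes). It was 1 with library totals alone (2.81%), 7 with no filter (11.7%) and 7 by DESeq2 (13.5%), and it changed with the library left out. The count called higher there was 1 at an adjusted p below 0.05 (15.5% of all genes) and with no filter (8.35%). It was also 1 by DESeq2 (11.7%) and with all 8 libraries (12%), and it changed with the library left out. For the interaction the count called higher was 3 with no filter, beside 5.83% of all genes. The counts called higher and lower both changed with the library left out. The interaction estimate reversed for *Bglap2* by DESeq2 (-0.44), without P1 GFP- replicate 1 and without P6 GFP+ replicate 2, running from -2.20 to 1.88 with a library left out, and for *Alpl* (-1.05 to 0.82) and *Runx2* (-0.83 to 1.66) without P6 GFP+ replicate 2. The causes of these changes were not tested. Scaling by library totals alone moved the median of all genes by -0.19 in the GFP- age comparison, -0.10 between the P1 fractions and 0.12 in the interaction. Same-numbered replicates deviated together at correlations of -0.33 (P1 and P6 GFP-), -0.17 (P1 and P6 GFP+), 0.04 (P1 fractions) and 0.06 (P6 fractions), so the numbers were not taken as pairs. With the replicate block the count called higher in GFP+ cells was 4 (4.04% of all genes), and the count called lower at P6 was 6 (7.69%). A crossed replicate block was added after the data were seen. With it, the counts called higher at P6 were 8 in GFP- cells (9.52% of all genes) and 4 in GFP+ cells (4.73%). Counts of 0 to 45 for *Bglap2* outside P6 GFP- cells limit what can be said of it.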

Other observations

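The type I collagen genes differed widely in level. Per kilobase of exon, *Col1a1* was at 43.8 ± 3.51 RPKM (SD, n = 2) in P6 GFP- cells and *Col1a2* at 913 ± 1.45 RPKM. The cause of this gap was not tested.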
